A study of Mus musculus with 6 samples.

Results

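The subiculum and entorhinal neurons are 1 of 17 cell classes that the authors assigned to single cells from mouse hippocampus, and their members were taken as every cell whose full class name reads Neuron_Subiculum_Entorhinal. The class held 170 of 12823 cells. It came from 6 mice of the strain B6.Cg-Tg(APPswe,PSEN1dE9)85Dbo/Mmjax (APP/PS1), 10 weeks old, of which 3 received an antisense oligonucleotide (ASO) and 3 phosphate buffered saline (PBS). All 6 animals carried the transgenes, which are driven by the mouse prion protein promoter, and the controls received saline and no control oligonucleotide. The series title names reduction of IDOL, the product of Mylip. Dissociated cells were captured by Drop-Seq, in which each cell shares a droplet with a barcoded bead and each RNA molecule is counted once through its unique molecular identifier (UMI). The PBS mice contributed 18, 35 and 17 cells of the class and the ASO mice 39, 37 and 24. A separate class of 270 cells, Neuron_Subiculum, served for comparison and is called the subiculum neurons below.

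The subiculum is the main output field of the hippocampus, and the entorhinal cortex beside it passes cortical input to the hippocampus and returns hippocampal output to the cortex. Excitatory neurons of the deep cortical layers are known for the transcription factors Fezf2, Bcl11b and Tle4, and those of the upper layers for Cux2. The entorhinal cortex and subiculum are among the regions affected early in Alzheimer's disease. IDOL is a ubiquitin ligase that sends receptors of the LDL family, among them the LDL receptor, VLDLR and LRP8, to degradation.

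The data were shallow per cell. After 2 predicted doublets were removed from each class, 168 and 268 cells remained. The cells of the class held 628 to 1994 UMIs each, with a median of 1248, and a median of 926 genes. Their UMIs summed to 22608, 43419 and 26235 in the PBS mice and to 45760, 48526 and 29613 in the ASO mice. Levels are given as CPM, the UMIs of a gene scaled by these sums in the usual way, so that 1 UMI was worth 20.6 to 44.2 CPM, and a gene with a few UMIs moves in steps of that size. The median number of UMIs per cell exceeded that of the subiculum neurons by 53.5 ± 138 (SD, 6 mice), with 3 of 6 mice above 0 and p = 0.406 in a two-sided exact sign-flip permutation test over mice. Only 8 barcodes in the whole table occurred in more than 1 mouse, and 0 cells of the class carried such a barcode. Whole libraries held 2005768 to 3150332 UMIs. The labels name 6 separate mice with 1 library each, so p-values measure the spread between animals and libraries together. Ranked by the ratio of 2 mitochondrial transcripts, mt-Rnr2 and mt-Cytb, and taken 2 at a time, the libraries gave 3 sets. Each set held 1 PBS and 1 ASO mouse. The ratios were 12.86 and 10.93 in the mice numbered 1, 7.16 and 4.49 in those numbered 2, and 16.79 and 15.87 in those numbered 3. The cut fixed the number and size of the sets, and the labels name no such batches.

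The class was neuronal and excitatory by its markers, but the 5 genes given for it did not single it out. Slc17a7, the vesicular glutamate transporter of cortical neurons, had a lowest, median and highest level of 76.2, 244 and 398 CPM in the 6 mice, against 63.7, 100.2 and 178 CPM in the subiculum neurons. Snap25, a component of the synaptic vesicle fusion machinery, lay at 2135 to 2742 CPM against 2178 to 3423 CPM. Camk2a, a calmodulin-dependent kinase of excitatory neurons, lay at 191 to 507 CPM against 487 to 789 CPM. The NMDA receptor subunit gene Grin2a lay at 38.1 to 310 CPM against 107 to 258 CPM. Chn1, which encodes a regulator of Rac signalling, lay at 88.5 to 453 CPM against 218 to 517 CPM. The ranges of the 2 classes overlapped for each of the 5. Among the 7 neuron classes, the mean over mice placed the class at rank 3 for Slc17a7, 2 for Snap25, 5 for Camk2a, 6 for Grin2a and 5 for Chn1. Some mice gave as few as 2 CA2/CA3 neurons and 12 interneurons, so the means of those classes are less certain. The second vesicular glutamate transporter gene, Slc17a6, had 12 UMIs in the class and 100 in the subiculum neurons. The excitatory list (Slc17a7, Slc17a6, Camk2a, Nrn1 and Neurod6) summed to 1149 ± 244 CPM against 1636 ± 275 CPM (SD, n = 6 mice). Its sum was higher in the class in 0 of 6 mice. Over 1615 genes, the mean profile of the class was most like that of the subiculum neurons (Spearman's rho 0.763) and next like that of the CA1 neurons (0.718), as a description across genes of the same libraries.

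Genes that did separate the class from the subiculum neurons were sought among the 4326 genes with at least 30 UMIs over both classes. For 117 of them, 2.7%, the 6 mice of one class all lay above the 6 mice of the other. Of these, 60 genes (1.39%) were higher in the class and 57 (1.32%) were lower. The authors' class names are taken to rest on these same counts, so these differences describe the class and carry no test. The median log2 ratio over the 4326 genes was -0.0019. A ratio is that of summed UMI rates, with an exact 95% interval that covers counting error only; log2 ratios use means over mice with 10 CPM added. The 12 genes with the largest log2 ratio in each direction are named here, and gene positions are those of the GENCODE annotation of mouse build GRCm38.

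**Figure D1:**
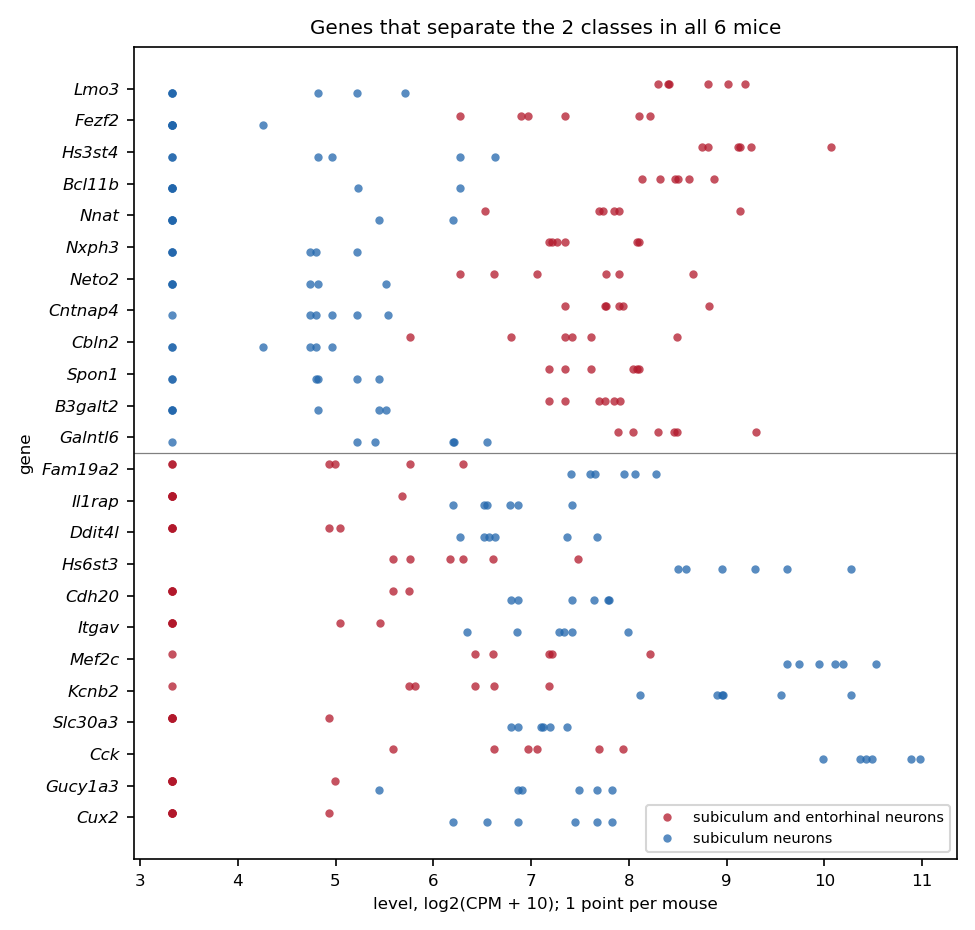
Level of 24 genes in each of 6 mice, as log2 of CPM plus 10 (horizontal axis), in the subiculum and entorhinal neurons (red) and the subiculum neurons (blue); each point is a mouse, and points at the left edge are mice with 0 UMIs. The 12 genes above the grey line were higher and the 12 below it lower in the subiculum and entorhinal neurons, with no overlap between the mice of the 2 classes.

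Transcription regulators were among the leading genes that were higher, and Hs3st4, described below, ranked between Fezf2 and Bcl11b by log2 ratio. Lmo3, a LIM-domain transcriptional cofactor (chromosome 6, 138362918 to 138581968, minus strand), ranged over 305, 384 and 575 CPM (lowest, median and highest mouse) against 0, 9.14 and 42.5 CPM. It had 86 UMIs in the class and 5 in the subiculum neurons, a ratio of 27.1 (11.2 to 85.4). Fezf2, a zinc-finger factor that specifies deep-layer projection neurons (chromosome 14, 12342094 to 12348189, minus strand), ranged over 67.5, 134 and 289 CPM, whereas its single UMI in the subiculum neurons came from ASO replicate 3. With 36 UMIs against 1, its ratio was 56.6 (9.53 to 2297). Bcl11b (chromosome 12, 107910403 to 108003602, minus strand), also known as CTIP2 and needed for the axons of deep-layer neurons, ranged over 270, 350 and 459 CPM against 0, 0 and 67.1 CPM. Its ratio was 17.3 (8.004 to 44.5). Each of these regulators was seen in every mouse of the class and was absent from at least 3 mice of the subiculum neurons.

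Other genes that were higher encode cell-surface and secreted proteins. Hs3st4, a heparan sulfate sulfotransferase (chromosome 7, 123982869 to 124398989, plus strand), had the most UMIs of the 12, with 126 against 12. Its level was 419, 550 and 1062 CPM against 0, 19.8 and 89.1 CPM, and its ratio 16.5 (9.13 to 32.8). Nxph3, a secreted ligand of neurexins (chromosome 11, 95509845 to 95514570, minus strand), was at 135, 148 and 265 CPM against 0, 8.39 and 27.2 CPM. Cbln2, a secreted synapse organizer that also binds neurexins, was at 166 ± 103 CPM against 10.8 ± 9.27 CPM (SD, n = 6 mice). Cntnap4, a neurexin-like adhesion protein, was at 246 ± 101 CPM against 19.9 ± 12.2 CPM. Neto2, an auxiliary subunit of kainate receptors, was at 185 ± 121 CPM against 11.8 ± 14.5 CPM. Spon1, a secreted matrix protein, was at 209 ± 58.6 CPM against 16.2 ± 13.8 CPM. The glycosyltransferase genes B3galt2 (190 ± 38.3 against 14.6 ± 17.1 CPM) and Galntl6 (349 ± 141 against 45.2 ± 30.7 CPM) and the proteolipid gene Nnat (247 ± 159 against 16.2 ± 26.9 CPM) completed the set. Of the 12, Neto2 had the largest spread relative to its mean in the class, from 67.5 CPM in ASO replicate 3 to 393 CPM in ASO replicate 1.

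The genes that were lower included a peptide transmitter, an upper-layer factor and an activity-regulated factor. Cck, the cholecystokinin precursor (chromosome 9, 121489824 to 121495694, minus strand), was at 38.1, 119 and 236 CPM (lowest, median and highest mouse) against 1007, 1394 and 2002 CPM. Its 30 UMIs against 495 made it 10.5-fold lower (7.26 to 15.7). Mef2c, a transcription factor that regulates excitatory synapse number (chromosome 13, 83504034 to 83667080, plus strand), was at 0, 111 and 289 CPM against 775, 1037 and 1462 CPM, or 7.89-fold lower (5.43 to 11.9). Cux2, a homeobox factor of upper-layer neurons (chromosome 5, 121856366 to 122050102, minus strand), gave 1 UMI in the class, in ASO replicate 2, and 46 in the subiculum neurons, where every mouse had between 63.7 and 218 CPM. Its rate was 29.3-fold lower (4.995 to 1180). Slc30a3, the zinc transporter of synaptic vesicles, also gave 1 UMI against 44, at 101 to 155 CPM in the subiculum neurons, 28-fold lower (4.77 to 1130).

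Kcnb2, a delayed-rectifier potassium channel subunit, was at 64.9 ± 46.1 CPM in the class against 613 ± 336 CPM (SD, n = 6 mice). Hs6st3, like Hs3st4 a heparan sulfate sulfotransferase, differed in the opposite direction, at 78.3 ± 47.8 CPM against 638 ± 328 CPM. Gucy1a3, a subunit of the nitric oxide receptor guanylyl cyclase, gave 1 UMI against 42. The integrin gene Itgav gave 2 UMIs against 48, the cadherin gene Cdh20 3 against 57, Ddit4l, a regulator of mTOR signalling, 2 against 39, the interleukin receptor accessory gene Il1rap 2 against 33, and Fam19a2, a secreted peptide gene, 6 against 74. For the 8 genes with 6 or fewer UMIs in the class, Cux2, Gucy1a3, Slc30a3, Itgav, Cdh20, Ddit4l, Il1rap and Fam19a2, the size of the difference is known only within wide limits.

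Marker genes of cortical layers were then compared as lists. The deep-layer list of 9 genes (Fezf2, Bcl11b, Tle4, Foxp2, Etv1, Nr4a2, Syt6, Ctgf and Cplx3) summed to 1062 to 1422 CPM in the class and 81.7 to 420 CPM in the subiculum neurons, higher in 6 of 6 mice. Its mean was 1285 ± 134 CPM against 242 ± 123 CPM (SD, n = 6 mice), and in the other neuron classes it was highest in CA1 (847 ± 178 CPM) and dentate neurons (729 ± 95.4 CPM). Of its 5 members with enough UMIs, 3 were higher without overlap, Fezf2, Bcl11b and Tle4, and 0 were lower, against 1.39% and 1.32% of all genes. The UMI minimum was set over both classes together. Fezf2 (36 UMIs against 1) and Bcl11b (77 against 7) met it through the class, so they could hardly have come out lower. The comparison with all genes is therefore a description and is not read as a result about the list. The median log2 ratio of the 5 was 1.82. Tle4, a corepressor found in corticothalamic neurons, was at 133, 227 and 305 CPM against 36.6, 60.8 and 96.9 CPM. Nr4a2, a nuclear receptor of the deepest cortical cells and claustrum, averaged 342 ± 105 CPM against 100 ± 108 CPM, higher in 5 of 6 mice, with overlap. Syt6 had 0 UMIs in the class, and Ctgf and Cplx3, markers of the deepest cortical sublayer, had 4 and 2.

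The upper-layer list of 7 genes had nearly equal sums, at 652 ± 234 CPM in the class and 652 ± 242 CPM in the subiculum neurons, higher in 3 of 6 mice. Its members differed in opposite directions, Cux2 being lower and Lmo3 higher without overlap. Lmo3 alone supplied a mean of 414 CPM of the sum in the class. Cux1, a relative of Cux2, had 6 UMIs in the class and 30 in the subiculum neurons, and the calcium buffer gene Calb1 2 and 22. Rasgrf2, an exchange factor for Ras, had 25 and 40, and Reln, a secreted signal of upper entorhinal cells, 8 and 19.

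The subiculum list did not separate the classes either, with 0 of 4 members without overlap and sums of 784 ± 292 CPM against 918 ± 121 CPM. Tshz2, a zinc-finger gene of subicular and cortical neurons, had 83 UMIs in the class, at 67.5 to 525 CPM, and 165 in the subiculum neurons, at 369 to 708 CPM. ASO replicate 3 gave the lowest value, and the other 5 mice lay between 330 and 525 CPM. Rorb, a nuclear receptor, averaged 162 ± 60.3 CPM against 50.6 ± 59.8 CPM and was higher in 6 of 6 mice, with overlap. Fn1 and Nts, which mark parts of the subiculum, had 11 and 6 UMIs, and Dlk1 had 0. The class carried deep-layer marker genes together with Tshz2 and Rorb of the subiculum list. Tshz2 was, however, seen in 25% of its cells against 38.8% of the subiculum neurons. Slc17a6, also on that list, had far fewer UMIs than in the subiculum neurons, as given above. The leading genes of the class do not by themselves assign the cells to the subiculum or the entorhinal cortex. Sox5, a factor of deep-layer neurons, was at 277 ± 77.04 CPM against 53.6 ± 61.4 CPM, and Sema3e, a guidance ligand, at 160 ± 46.02 CPM against 21.03 ± 20.8 CPM, both without overlap. Tbr1, a T-box factor of the same layers, was at 224 ± 120 CPM against 58.3 ± 41 CPM, higher in 6 of 6 mice with overlap. These last 3 genes were picked after their values were seen.

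**Figure D2:**
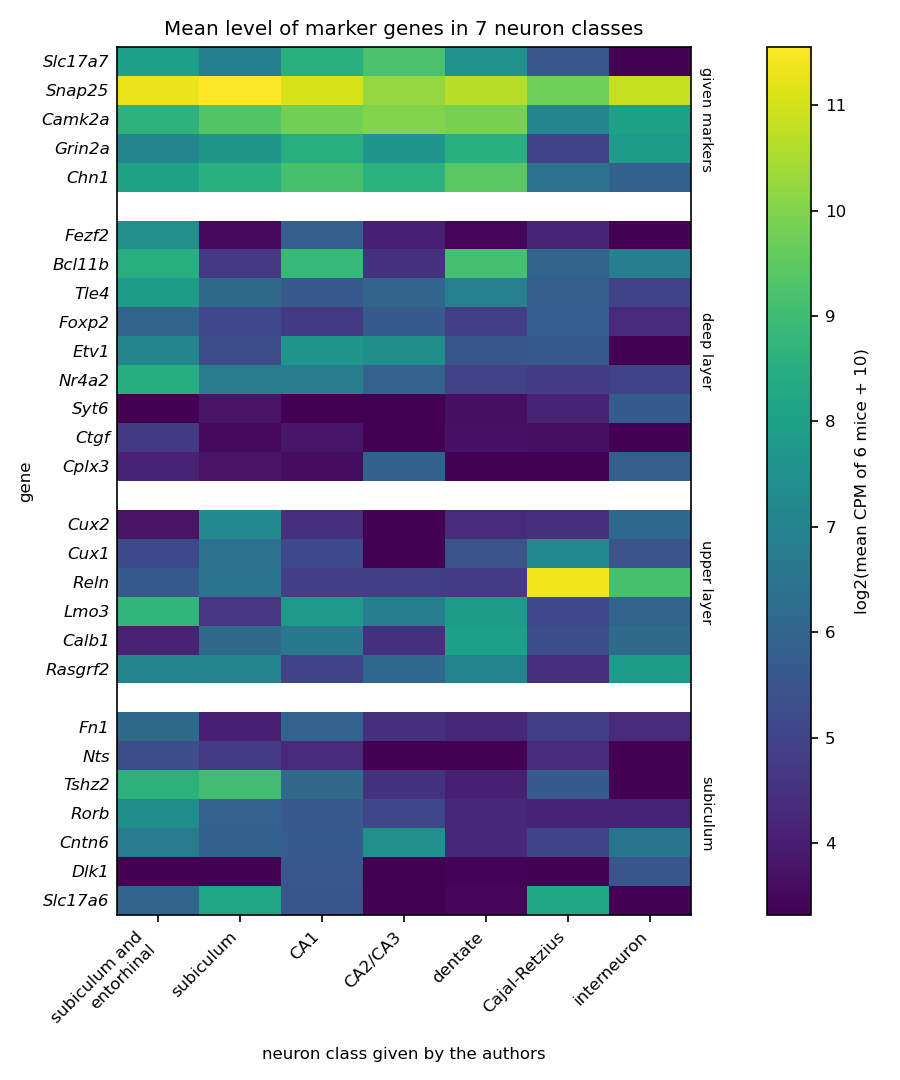
Mean level over 6 mice of the 5 given markers and of genes of the deep-layer, upper-layer and subiculum lists (rows) in the 7 neuron classes (columns); colour is log2 of mean CPM plus 10. The subiculum and entorhinal neurons hold Fezf2, Tle4, Nr4a2 and Lmo3 at the highest mean of the 7 classes, while the given markers are bright in several of them.

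Across all 17 classes, Nxph3 and Fezf2 stood out most in the class by the ratio to the next highest class. Nxph3 averaged 183 CPM, and its next highest mean was 22.6 CPM in the Cajal-Retzius neurons. Fezf2 averaged 166 CPM against 52.4 CPM in astrocytes. Rprm, which restrains the cell cycle and marks deep cortical neurons, averaged 345 ± 162 CPM against 160 CPM in dentate neurons, and was higher than in the subiculum neurons in every mouse without overlap. Cbln2 (166 against 76.8 CPM in interneurons), Tle4 (220.5 against 109 CPM in dentate neurons), Olfm3 (187 against 90.1 CPM in interneurons) and Ccl27b (155 against 69.6 CPM in Cajal-Retzius neurons) followed. Chsy3, a chondroitin synthase, also ranked here, but its mean rests on PBS replicate 1, at 663 CPM, while the other 5 mice lay between 23.03 and 197 CPM. Some leading genes are shared with other neurons: Bcl11b was higher in dentate (538 CPM) and CA1 neurons (447 CPM) than in the class, and Cntnap4 was higher in interneurons.

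In single cells the leading genes were seen in 18.5% to 46.4% of members. Hs3st4 gave a UMI in 78 of 168 cells, 46.4% (exact Clopper-Pearson 95% interval 38.7 to 54.3), against 3.36% of 268 subiculum neurons and 1.13% of 3000 oligodendrocytes, a class that should lack it. The median depths of these classes were 1248, 1222 and 1037 UMIs. Thinned to 550 UMIs in every cell, the share in the class was 22.6%. Lmo3 was seen in 33.3% of cells, Bcl11b in 30.4%, Nr4a2 in 25.6%, Tle4 in 24.4% and Fezf2 in 18.5%, against 1.10%, 1.53%, 0.567%, 3.73% and 0.0667% of oligodendrocytes. Other neurons held these genes too. In CA1 and dentate neurons, Bcl11b was seen in 34.39% and 43.14% of cells, more than in the class. The shares there were lower for the rest: 21.05% and 22.99% for Lmo3, and 14.04% and 5.704% for Hs3st4. They were 11.23% and 2.585% for Nr4a2, 4.561% and 11.41% for Tle4, and 5.263% and 0.08913% for Fezf2. Cck gave a UMI in 13.1% of the class and 65.3% of the subiculum neurons. Intervals and shares cover counting error only.

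Of the 6 genes Fezf2, Bcl11b, Tle4, Nr4a2, Hs3st4 and Lmo3, 136 of 168 cells (81%) held at least 1. The numbers of cells with 1, 2, 3, 4, 5 and 6 of them were 41, 50, 25, 17, 2 and 1, and 32 cells held none. Lmo3, Fezf2, Hs3st4 and Bcl11b had been picked as higher in these same cells. Other classes were not counted in this way, so the share does not set the class apart. Of the 15 pairs of the 6 genes, 14 were found in the same cells more often than the product of their shares gives. Tle4 with Hs3st4 was found less often (18 cells, product 19.04). Fezf2 and Bcl11b were together in 11 cells, where the product of their shares gives 9.41, and Nr4a2 and Lmo3 in 24, where it gives 14.3. Bcl11b and Tshz2 were together in 20 cells (product 12.8), and Nr4a2 and Tshz2 in 9 (product 10.8). Cells with more UMIs are more likely to show any gene, so the pairs are a description. The cells also differed in nuclear and mitochondrial RNA. Malat1, a nuclear RNA, took 0 to 4.62% of a cell's UMIs with a median of 0.891%, and mitochondrial genes took 0.936 to 14.95% with a median of 4.72%.

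Among glutamate receptor genes, AMPA receptor subunits differed in opposite directions. Of 8 AMPA and kainate receptor genes with enough UMIs, 1 was lower without overlap, where 1.32% of all genes were. A single gene of a short list is not read as a result about the list. This was Gria4, at 65.6, 117 and 267 CPM (lowest, median and highest mouse) against 339, 496 and 688 CPM, which made it 3.84-fold lower (2.58 to 5.90). Gria3 differed in the opposite direction, at 598, 970 and 1327 CPM against 258, 481 and 653 CPM, higher in 6 of 6 mice though with overlap. Gria2, the subunit that limits calcium entry, averaged 1662 ± 412 CPM against 1435 ± 180 CPM and was higher in 4 of 6 mice. Of the 4 NMDA and 6 metabotropic receptor genes with enough UMIs, 0 separated the classes. Grin2b was at 404 ± 137 CPM against 557 ± 181 CPM, and Grm5 at 813 ± 281 CPM against 707 ± 121 CPM.

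Some calcium signalling genes differed, in both directions. Of 20 genes, Prkcb was higher without overlap and Camk2n1, Nrgn and Ncdn were lower. Over all genes, 1.39% were higher and 1.32% lower without overlap. Prkcb, a calcium-activated protein kinase C, was at 721, 1209 and 1566 CPM against 226, 348 and 604 CPM, a ratio of 3.23 (2.61 to 4.02), and only the CA1 neurons had a higher mean among neuron classes (1411 CPM). Nrgn, which holds calmodulin at the dendritic membrane, was at 76.2, 242 and 369 CPM against 871, 1056 and 1326 CPM, 4.21-fold lower (3.16 to 5.70). Camk2n1, an inhibitor of CaM kinase II, was at 628 ± 112 CPM against 1297 ± 258 CPM, and Ncdn, or neurochondrin, at 492 ± 102 CPM against 756 ± 120 CPM. The sum of the 20 genes was 17860 ± 1939 CPM against 18960 ± 2197 CPM.

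Of the 20 vesicle and release genes, Syt4, a synaptotagmin of dense-core vesicles, was lower (317 ± 106 against 557 ± 88.6 CPM). Among 18 postsynaptic and adhesion genes, Lrrtm2, a postsynaptic ligand of neurexins, was higher (158 ± 42 against 67.6 ± 19.4 CPM). Of 17 potassium and sodium channel genes, Kcnb2 alone was without overlap. With 2.7% of all genes without overlap, single genes of 20, 18 and 17 are not read as results about these lists. Kcnq5, a subunit of the M-current channel, was at 403 ± 183 CPM against 746 ± 214 CPM and lower in 6 of 6 mice, while its relative Kcnq3 was at 318 ± 76.9 CPM against 234 ± 32.8 CPM and higher in 6 of 6, both with overlap. Immediate early genes, which neuronal activity and dissociation both induce, summed to 666 ± 177 CPM against 1054 ± 490 CPM, with 0 of 6 members apart. Egr1 had 37 UMIs against 101, and Fos 6 against 20.

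**Figure D3:**
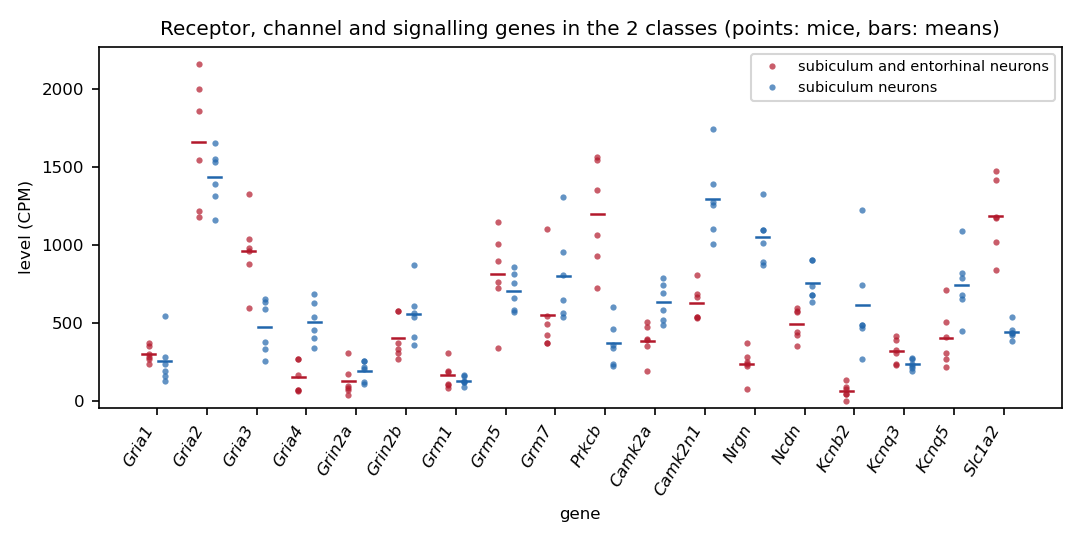
Level in CPM (vertical axis) of 18 receptor, channel, signalling and transporter genes (horizontal axis) in the subiculum and entorhinal neurons (red) and the subiculum neurons (blue); points are the 6 mice of each class and bars their means. Prkcb and Slc1a2 lie wholly above, and Gria4, Camk2n1, Nrgn, Ncdn and Kcnb2 wholly below, the subiculum neurons.

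Amyloid, lipoprotein receptor and cholesterol genes separated the classes in 2 cases, each a single gene of its list, where 2.7% of all genes did so. App was at 1327, 2211 and 2761 CPM against 1579, 2128 and 3316 CPM. The strain also carries an APP transgene, and how far the App counts include its RNA was not tested. Of 9 amyloid precursor processing genes with enough UMIs, Adam10, the main alpha-secretase, was higher without overlap, at 186 ± 33.1 CPM against 80.2 ± 27.04 CPM. Bace1, the beta-secretase gene, had 26 UMIs against 28. Of 9 lipoprotein receptor genes with enough UMIs, 0 separated the classes. Of 10 cholesterol synthesis genes, Fdft1, or squalene synthase, was higher without overlap (178 ± 82.2 against 77.3 ± 41.6 CPM), and the sum of the list was 1322 ± 201 CPM against 1053 ± 211 CPM, higher in 6 of 6 mice.

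Defining markers of interneurons, dentate neurons, microglia and endothelium were at 0 or at a few UMIs in the class. The interneuron genes Gad1 and Gad2 had 2 and 4 UMIs in the class and 0 in the subiculum neurons, and Pvalb, Vip, Npy and Lhx6 were at 0. The dentate genes Prox1 and C1ql2 were at 0. The microglia list summed to 0 to 109 CPM and the endothelial list to 0 to 87.4 CPM. The astrocyte list of 6 genes summed to 1067 to 1704 CPM against 581 to 820 CPM in the subiculum neurons, and Slc1a2 supplied most of it. Slc1a2, the main glutamate uptake transporter of astrocytes, was at 839, 1178 and 1474 CPM against 384, 436 and 535 CPM, a ratio of 2.83 (2.30 to 3.48), and had the highest mean of the neuron classes. The astrocyte genes Aqp4 and Gja1 had 1 and 2 UMIs in the class, and Aldoc 30 against 61 in the subiculum neurons. Ttr, the leading gene of the choroid plexus, lay at 1278 to 5977 CPM in the class in 5 mice and at 76.2 CPM in PBS replicate 3, and 83.3% of the class and 81.6% of oligodendrocytes held a Ttr UMI. The oligodendrocyte list summed to 381 to 737 CPM in PBS and 546 to 1566 CPM in ASO mice, the highest in ASO replicate 2, and the part of this RNA in the comparisons below was not tested.

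The first question of the treatment was whether the targeted transcript differed, and the depth could not answer it. Mylip (chromosome 13, 45389742 to 45412022, plus strand) gave 0, 1 and 1 UMIs in the PBS mice and 1, 0 and 0 in the ASO mice. Its 3 UMIs in the class and 5 in the subiculum neurons were below the filter on low counts, and no test was made. The IDOL substrates Vldlr and Lrp8 had 15 and 9 UMIs and were not tested either.

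The share of the class among all cells had a higher mean in ASO mice, within the spread between mice. It was 0.934%, 1.74% and 0.806% in the PBS mice and 1.35%, 1.76% and 1.37% in the ASO mice, so that the groups overlapped through PBS replicate 2. The means were 1.49% ± 0.234 and 1.16% ± 0.506 (SD, n = 3 mice each), a difference of 0.334 percentage points with p = 0.3 in a two-sided exact permutation test over 20 assignments, and 0.4 after Benjamini-Hochberg adjustment over 8 measures. With 3 mice against 3, no p below 0.1 was possible. The difference was 0.624 points without PBS replicate 2 (exact permutation p = 0.1), 0.221 without PBS replicate 1, 0.157 without PBS replicate 3 and 0.199 without ASO replicate 2. Within the 3 sets of libraries the ASO mouse had the higher share in 3 of 3 (two-sided exact sign-flip permutation p = 0.25, the smallest that 3 sets allow). The differences were 0.413, 0.024 and 0.565 points in the sets that hold the mice numbered 1, 2 and 3. The share of neurons was also higher in the ASO mouse of each set, by 2.79, 0.646 and 2.94 points in the same order of mice. These comparisons within sets were added after the data were seen. The subiculum neurons took 2.94% ± 1.67 of cells in ASO and 1.47% ± 0.402 in PBS mice (exact permutation p = 0.2), with 85 cells and 4.85% in ASO replicate 3. As a share of the 2 classes together, the class had a lower mean in ASO mice, 36.6% ± 12.7 against 43.3% ± 5.42 (exact permutation p = 0.6). These are shares of captured cells, not of the tissue.

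**Figure D4:**
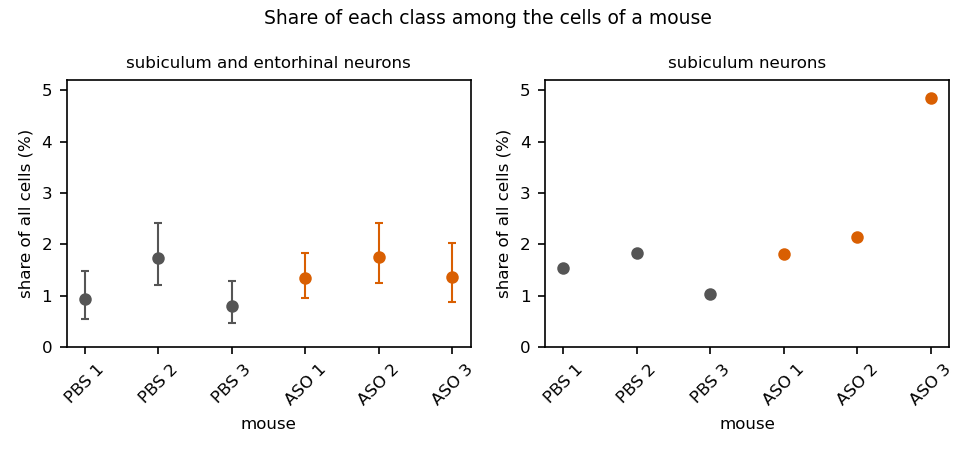
Share of all cells (%) in each mouse for the subiculum and entorhinal neurons (left) and the subiculum neurons (right), PBS mice in grey and ASO mice in orange; bars on the left are exact 95% binomial intervals. The shares on the left run from 0.806% to 1.76% and overlap between treatments, and on the right ASO replicate 3 stands at 4.85%.

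Cells of the class held fewer UMIs in the ASO mice, within the spread between mice. The median per cell was 1191 ± 81.8 in ASO and 1417 ± 274 in PBS mice (SD, n = 3 each), a difference of -226 UMIs (two-sided exact permutation p = 0.3), with the highest value, 1712, in PBS replicate 3. Without that mouse the difference was -78.7 UMIs, and without PBS replicate 2 it was -350 (exact permutation p = 0.1). Within the sets of libraries that hold the mice numbered 1, 2 and 3 it was -264, 102 and -516.5 UMIs. The median number of genes per cell was 876 ± 50.03 against 1002 ± 154 (exact permutation p = 0.2). The mitochondrial share was 4.99% ± 1.35 against 4.68% ± 0.364 (exact permutation p = 0.7).

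No gene passed the test for a difference between ASO and PBS mice in the class. UMIs were summed per mouse, and 647 genes had enough to be tested with edgeR's quasi-likelihood test and Benjamini-Hochberg adjustment at 0.05. The number called was 0 (0%), with 17 genes at an unadjusted p under 0.05, where 32.35 would fall by chance. DESeq2 and limma voom also called 0, with 5 and 20 such genes. Of the 647 genes, 297 had a higher and 350 a lower fitted level in ASO mice, with a median log2 fold change of -0.04 and a median standard error of 0.40. The same test was run on simulated counts with the means and library sizes of these mice, with 685 genes tested. It recovered 71 of 72 genes changed 4-fold and 36 of 89 changed 2-fold, with 5 false calls. Recovery with a smaller share of changed genes was not tested, so the 4-fold rate is not carried over to these mice. Even at the 2-fold rate found there, differences of 2-fold would often have been missed at this depth.

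The genes nearest to the threshold among those higher in ASO mice were Myo5a, mt-Rnr1, Hspa4l and Chn1. For each gene in this and the next paragraph the adjusted p of edgeR's test was 0.9955. Myo5a, a myosin that carries vesicles and endoplasmic reticulum into dendritic spines, had 398, 461 and 305 CPM under PBS, and under ASO 896, 577 and 1013 CPM. The groups did not overlap, which was so for 41 of the 647 genes (6.34%), and the log2 fold change was 1.01 (SE 0.364). Chn1, one of the given markers, stood at 88.5, 207 and 152.5 CPM under PBS and at 306, 453 and 338 CPM under ASO (log2 fold change 1.15, SE 0.497). Hspa4l, a chaperone gene, was fitted 1.29 higher on the log2 scale (SE 0.552), with 44.2 to 207 CPM in PBS and 309 to 393 CPM in ASO mice. For the mitochondrial ribosomal RNA gene mt-Rnr1 the fitted log2 difference was 1.02 (SE 0.402), and it was 0.27 without ASO replicate 3, whose level was 3208 CPM.

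Pak3, Phactr1, Opcml and Frmpd4 were nearest among the lower genes. Pak3, a kinase that shapes the actin of spines, stood at 487, 484 and 305 CPM under PBS and at 262, 82.4 and 236 CPM under ASO (log2 fold change -1.22, SE 0.461, and -0.75 without ASO replicate 2). Phactr1, a regulator of actin and protein phosphatase, stood at 2035, 967 and 648 CPM under PBS and at 743, 536 and 675 CPM under ASO. Its log2 fold change of -0.94 (SE 0.376) was -0.36 without PBS replicate 1. Opcml, an adhesion protein, and Frmpd4, a scaffold of the postsynaptic density, had log2 fold changes of -0.89 (SE 0.370) and -1.03 (SE 0.444), which were -0.26 and -0.22 without PBS replicate 1; the value of Frmpd4 was -1.54 without ASO replicate 1. PBS replicate 1, with 17 cells in the class after removal of doublets, had 2167 CPM of Opcml and 1460 CPM of Frmpd4. Its nuclear RNA Malat1 stood at 20350 CPM, above the 7716 to 13810 CPM of the other 5 mice, and Dlg2 at 2035 CPM against 721 to 1351 CPM. The part of nuclear RNA in these differences was not tested.

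**Figure D5:**
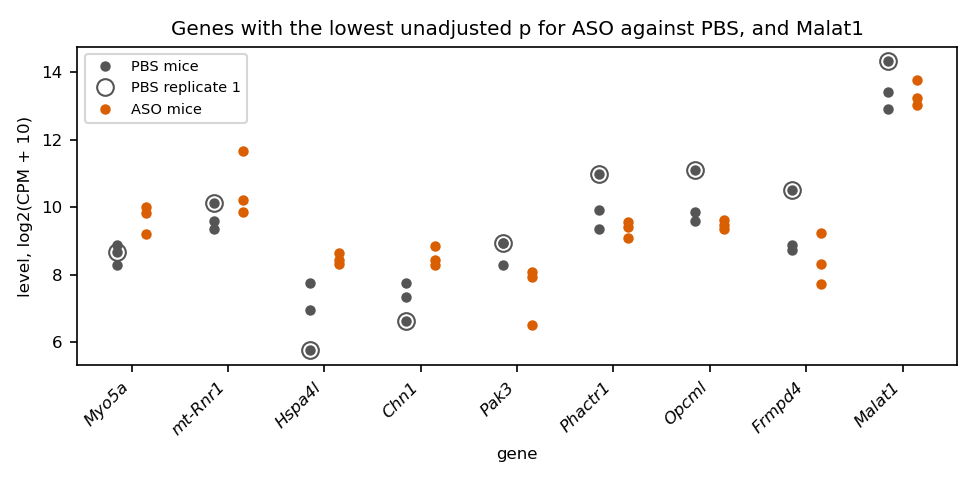
Level in the subiculum and entorhinal neurons, as log2 of CPM plus 10 (vertical axis), of the 4 genes nearest to the threshold in each direction for ASO against PBS and of Malat1; grey points are PBS and orange points ASO mice, and the ring marks PBS replicate 1. That mouse is the highest of the 6 for Phactr1, Opcml, Frmpd4 and Malat1.

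No list of genes held a called member. Of 16 calcium signalling genes tested, 7 were fitted higher and 9 lower in ASO mice, with a median log2 fold change of -0.02. Of 14 vesicle and release genes, 9 were higher and 5 lower (median 0.07), and of 7 postsynaptic genes 2 were higher and 5 lower (median -0.17). Of 6 channel genes 4 were higher and 2 lower. The fitted log2 difference of App was 0.26 (SE 0.320), with a 95% interval of -0.36 to 0.89. The only lipoprotein receptor gene with enough UMIs was Lrp1b, a large endocytic receptor, at -0.89 (SE 0.388) on the log2 scale. Its levels were 1504, 852 and 496 CPM under PBS and 503, 371 and 743 CPM under ASO, which overlap. Among the given markers the log2 differences were 0.36 (SE 0.400, and 0.12 without PBS replicate 3) for Camk2a and -0.04 (SE 0.317) for Snap25, and Slc17a7 and Grin2a had too few UMIs.

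Whether the ASO effect differed between the class and the subiculum neurons was tested as an interaction with mouse as a block. Of 1254 genes, 0 (0%) passed edgeR's quasi-likelihood test, with 55 at an unadjusted p under 0.05 where 62.7 would fall by chance. In the subiculum neurons themselves 2 of 1062 genes (0.188%) were called, both lower in ASO mice. They were Trpm3, a cation channel, at -1.67 (SE 0.362), and Nlgn1, a neurexin ligand of excitatory synapses, at -1.35 (SE 0.308), with edgeR adjusted p = 0.0248 and 0.0272. In the class, Nlgn1 stood at 575, 346 and 419 CPM under PBS and at 393, 227 and 608 CPM under ASO, a log2 difference of -0.19 (SE 0.416) with a 95% interval of -1 to 0.629. The difference of the 2 effects for Nlgn1 was 1.18 (SE 0.433) with an edgeR adjusted p of 0.886, so it was not shown to differ. Trpm3, with 19 UMIs in the class, was below the filter there.

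The genes nearest to a difference between the classes were Myo5a (1.19, SE 0.428) and Cst3 (1.21, SE 0.440) in favour of the class and Atp5c1 (-1.53, SE 0.531) and Phactr1 (-1.04, SE 0.372) in the other direction, on the log2 scale and with an edgeR adjusted p of 0.886 each. Cst3 encodes the protease inhibitor cystatin C and Atp5c1 a subunit of ATP synthase. The difference for Cst3 was 2.02 without PBS replicate 2 (edgeR adjusted p = 0.095) and 0.71 without PBS replicate 3, and that for Phactr1 was -0.62 without PBS replicate 1. For Cst3 the effect was 0.51 in the class and -0.74 in the subiculum neurons. For Atp5c1 it was -0.69 and 0.85.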

How the data were processed

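Hippocampal cells of 6 APP/PS1 mice were profiled by Drop-Seq, with 3 mice per group. The authors deposited raw UMI counts per gene and cell with a class in each cell's name. bcl2fastq and STAR 2.5.0c with builds mm10 and GRCm38 were used, per the submitters' processing notes. For the counting program, its annotation, any use of strand and the making of the classes, the sources used here name no program or method. Replicate numbers within a group follow accession order and were not used as pairs. The 3 sets of libraries defined from mitochondrial transcripts happen to join mice of the same number.

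Here, doublets were predicted per mouse with Scrublet in scanpy 1.11.5 and removed (207 of 12823 cells, 1.61%, leaving 12616). No cell in the table exceeded 14.99% mitochondrial UMIs. Counts were summed per mouse and class and tested in R 4.3.3 with edgeR 4.0.16 (filterByExpr with a minimum count of 10, TMM, quasi-likelihood test, Benjamini-Hochberg adjustment at 0.05), with DESeq2 1.42.0, limma 3.58.1 voom, no filter, other size factors, left-out mice and other cell sets as alternatives. The test was checked on simulated counts. Class profiles are CPM of summed counts per mouse, with a prior of 10 CPM and at least 30 UMIs. Depth, 20.6 to 44.2 CPM per UMI, limits all genes with few counts, and UMIs correct for amplification but intervals cover counting error only.

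Genes were named by rule: Mylip and the given markers, up to 12 called genes or else the 4 of lowest p in each direction (2 for the interaction), the 12 most separated genes in each direction, up to 6 genes per list, and 8 genes by ratio to the next class. Genes outside this rule were named after their values were seen: Sox5, Sema3e, Tbr1, Malat1, Trpm3, Fos, Bace1, Lrp8, the markers listed at 0 or a few UMIs, and the list genes without overlap (Gria4, Camk2n1, Nrgn, Ncdn, Syt4, Lrrtm2). Some genes of the lists are not reported here. The members and lists were chosen with earlier results of these data known. As in any 3' count, overlapping genes and near-identical copies can share reads.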

Additional observations from a re-analysis of the deposited data

How the results depend on the processing

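The count of genes called for ASO against PBS was 0 under all 14 alternatives, which left out each mouse, changed the size factors, test or filter, kept doublets, limited mitochondrial UMIs to 10%, or left out cells with another type's marker. The lowest edgeR adjusted p was 0.0505 without a filter, over 13910 genes, and 0.092 without PBS replicate 2, against 0.9955 in the main test. The difference of the ASO effect between the classes called 0 to 2 genes when a mouse was left out. The 2 came without PBS replicate 2. Among them was Brinp3 (-7.54, edgeR adjusted p = 0.000165), which with all mice was at -1.91 (edgeR adjusted p = 0.886). It was high in PBS replicate 1 of the class (1371 CPM) and had 0 UMIs in PBS replicates 1 and 3 of the subiculum neurons. The 117 genes that separated the classes became 153 to 196 when a mouse was left out, since fewer mice must then not overlap: 196 without PBS replicate 1 and 179 without PBS replicate 3. In the 122 of 168 cells with no UMI of a defining marker of another cell type, 78 genes separated the classes, 35 higher and 43 lower, and 63 of them were among the 117. The ASO difference in share turned to -6.71 percentage points when taken of the 2 classes together. Snap25 changed sign from -0.04 to 0.14 without a filter, and ranged from -0.125 to 0.0711 when a mouse was left out (0.0403 without ASO replicate 3, 0.000306 without PBS replicate 2). Of 126 values of 10 named genes under alternatives, 122 kept direction and side of the threshold, as did all 32 for 4 genes of the interaction. All 216 log2 ratios of the 24 class genes kept their direction, but 20 of the 24 stayed without overlap and above the UMI minimum in those 122 cells, and 21, 22 and 20 without ASO replicates 1, 2 and 3.

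The labels give the mice no shared replicate numbers, so they provide no pairing. A term for the 3 sets of libraries defined by mt-Rnr2 and mt-Cytb, each of 1 PBS and 1 ASO mouse, acted as a block and gave 0 calls and 14 genes at an unadjusted p under 0.05. With 17 to 38 cells per mouse, genes of a few UMIs such as Mylip were not tested.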
